A study of Mus musculus with 9 samples.

Results

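The urea cycle enzymes and transporters examined here are 7 genes, Cps1, Otc, Ass1, Asl, Nags, Slc25a15 and Slc25a13, taken by symbol from a table of 27179 genes measured in mouse liver. Each symbol matched 1 row, and all 7 were among the 12993 genes tested, the genes whose normalized counts averaged 10 or more. Poly(A) RNA from a flash-frozen piece of liver (m-lobe) was sequenced in bulk. The mice were C57BL/6J with a wild-type genotype, kept on normal chow, and injected at 17 months of age with AAV8, a virus that infects liver cells efficiently. The dose was 3e11 vector genomes per mouse. The vector carried saCas9, a small Cas9 nuclease, under TBG, a promoter active in hepatocytes, and a guide RNA under the U6 promoter. The guide was directed at the Rosa26 locus in 4 control libraries (sgRosa26, named A to D here) and at Ccnd1 in 5 libraries (sgCcnd1, E to I), and liver was taken 3 weeks later. All 9 libraries thus come from livers that received vector and nuclease, and no uninjected liver was analysed. Cutting is limited by the promoter to hepatocytes, while the RNA comes from all cells of the piece, so fewer cells of a type and less RNA per cell cannot be told apart. The labels number the replicates within each group and do not say which animal each came from, so p-values measure the spread between these libraries.

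The urea cycle turns ammonia, which is toxic, into urea for excretion, and runs in full only in hepatocytes, mainly those near the portal vein. In the mitochondrion, CPS1 joins ammonia to bicarbonate and OTC passes the product to ornithine to make citrulline. In the cytosol, ASS1 joins citrulline to aspartate, and ASL splits the product into arginine and fumarate, after which urea is released and ornithine is formed again. NAGS makes N-acetylglutamate, without which CPS1 is inactive. SLC25A15 carries ornithine into the mitochondrion in exchange for citrulline, and SLC25A13 (citrin) brings out the aspartate that ASS1 uses.

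The libraries held between 10.8 M and 20.2 M gene-assigned reads. The targeted gene was at 744 ± 110 normalized counts in sgRosa26 (SD, n = 4) and 362 ± 40.6 in sgCcnd1 (SD, n = 5), and Ccnd1 was the one gene of 12993 past the threshold, an adjusted p under 0.05 in limma, a linear model fitted across all genes. That call was lost without B, D, F, H or I (limma adjusted p from 0.0559 to 0.0852) and without B, D and F together (0.288). Some features of single libraries touch the results below. Library H of sgCcnd1 had almost no reads of Y-linked genes (Ddx3y was at 2.00 normalized counts there and between 810 and 1154 elsewhere). Long transcripts were low relative to short ones in B, D and F: the median log2 deviation of 2052 genes with transcripts of at least 5000 bases, minus that of 1764 genes under 2000 bases, was -0.23 in B, -0.22 in F and -0.20 in D, and lay between 0.00 and 0.21 in the other 6 libraries. Of the 8 hepatocyte markers, 8 were detected, with a summed level of 1788353 to 2100118 normalized counts in sgRosa26 and 1685402 to 2166812 in sgCcnd1.

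None of the 7 members passed the threshold between the groups. Across all genes tested 0.00770% did, 0 of them higher and 1, Ccnd1, lower. In 6 of the 7 members the fitted log2 fold change (sgCcnd1 minus sgRosa26, on log2 of normalized count + 1) was above 0, and Nags was the exception. Their median was 0.17, against 0.01 for all genes tested, of which 52.9% were above 0, and it was 0.08 with quantile normalization. Abundant genes leaned the same way: among the 1938 genes with a mean at or above that of Nags, the lowest member, 71.8% were above 0 and the median was 0.08. At an unadjusted limma p under 0.05 there was 1 member, Asl, where 5.22% of all genes, and 232 of the 1938 abundant genes, were higher at that level. The edgeR and DESeq2 count models also called 0 of the 7, where DESeq2 called 0.316% of all genes higher and edgeR 0.00770% in either direction, and each likewise had 1 of the 7 at an unadjusted p under 0.05.

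**Figure D1:**
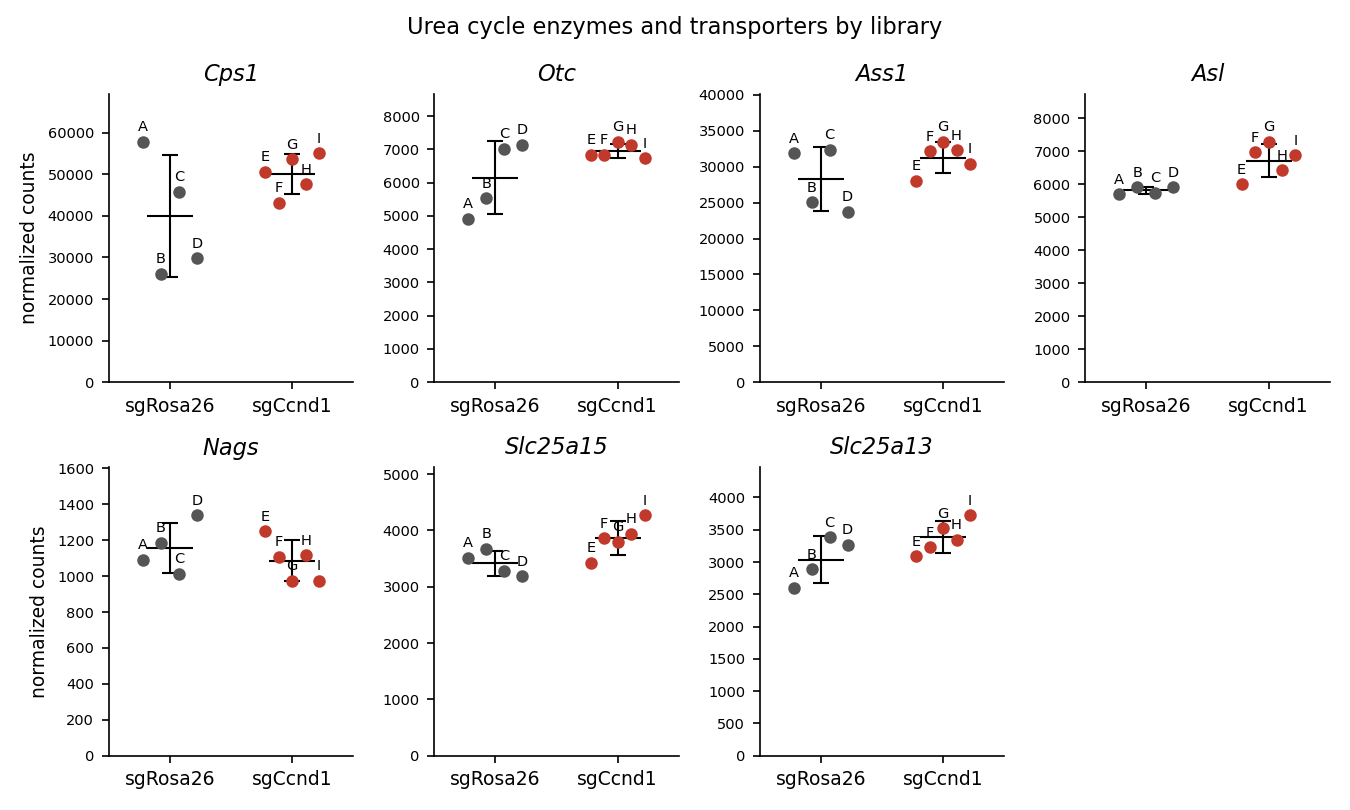
Normalized counts of the 7 members in each library (points, lettered A to I), with the mean (long bar) and SD (capped line) of sgRosa26 (n = 4, grey) and sgCcnd1 (n = 5, red); each y axis starts at 0. Cps1 spreads from 26093 to 57887 among the controls, whereas the 4 control values of Asl lie together below all 5 sgCcnd1 values.

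Of the enzymes in the mitochondrion, Nags (Entrez 217214, GRCm38 chr11:102145513-102149477, plus strand, 7 exons) was at 1092, 1187, 1014 and 1340 normalized counts in A to D and at 1249, 1109, 975, 1117 and 975 in E to I. The groups overlapped widely, with 2 sgCcnd1 libraries below all controls. The log2 fold change was -0.09 with a 95% interval from -0.32 to 0.13 (limma adjusted p = 0.765). It was -0.02 without D, -0.15 without C, -0.14 without E and -0.14 with quantile normalization (limma adjusted p = 0.958, 0.635, 0.605 and 0.679), and its sign turned, to 0.03, without B, D and F (limma adjusted p = 0.949).

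Cps1 (Entrez 227231, chr1:67123026-67231259, plus strand, 38 exons) had 57887, 26093, 45799 and 29855 normalized counts in A to D, and 50627, 43234, 53670, 47690 and 55044 in E to I. Controls B and D were below every other library, and control A was above every other. The means were 39909 ± 14718 (SD, n = 4) and 50053 ± 4754 (SD, n = 5), so the controls differed among themselves by 2.22-fold and the sgCcnd1 libraries by 1.27-fold. The groups differed by 0.40 on the log2 scale (standard error 0.208), with a 95% interval from -0.06 to 0.85 (limma adjusted p = 0.510). It was 0.22 without B, 0.28 without D and 0.60 without A, and none of these passed (limma adjusted p = 0.805, 0.657 and 0.252).

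The library shift in long transcripts moved with Cps1, whose longest transcript has 5555 bases. B and D, lowest in Cps1, were at -0.23 and -0.20 on that shift, and A, highest in Cps1, was at 0.21. F had a like shift, -0.22, but its Cps1 level was -0.14 from the median of the 9 libraries on the log2 scale, against -0.87 in B and -0.68 in D. Over the 9 libraries, as a description, Pearson's r of the log2 level with the shift was 0.84 for Cps1 (rho 0.87), 0.16 for Slc25a15 (4430 bases, rho 0.03), -0.01 for Slc25a13 (3121 bases, rho 0.10), -0.19 for Otc (2997 bases, rho -0.35), -0.48 for Nags (2714 bases, rho -0.42), -0.09 for Asl (2413 bases, rho -0.30) and 0.52 for Ass1 (1696 bases, rho 0.15). With the shift as a covariate the log2 fold change of Cps1 was 0.30 (limma adjusted p = 0.319, with the unadjusted p going from 0.0810 to 0.0354). Without B, D and F, the libraries lowest in Cps1, it was 0.01 (limma adjusted p = 0.993), a fit that leaves 2 controls. The same 2 fits put Asl at 0.21 in each (limma adjusted p = 0.259 and 0.562). The part of the shift in these values was not tested.

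**Figure D2:**
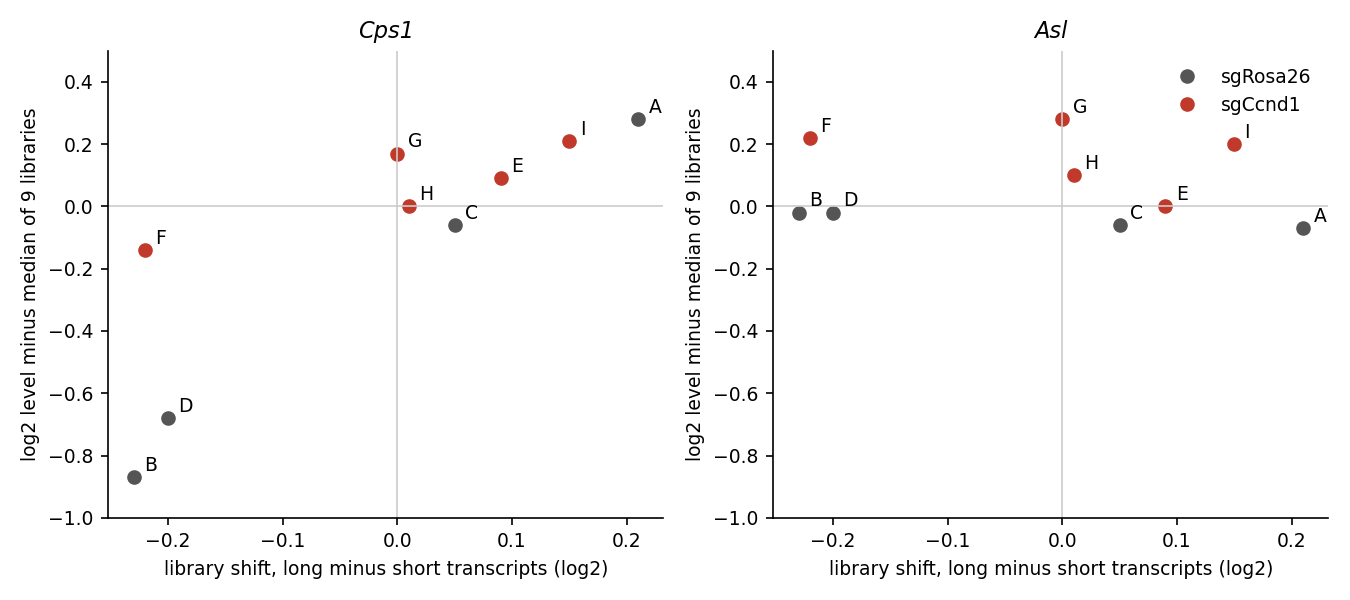
Log2 level of Cps1 (left) and Asl (right) in each library, as the difference from the median of the 9 libraries, against the shift of long relative to short transcripts in that library (log2); grey points are sgRosa26 and red points sgCcnd1. B and D lie lowest for Cps1 and A highest, while the 4 control values of Asl are level across the same shifts.

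Otc (Entrez 18416, chrX:10252305-10321024, plus strand, 10 exons) was at 4918, 5530, 7016 and 7145 normalized counts in A to D and at 6839, 6840, 7235, 7143 and 6743 in E to I. Libraries A and B were low, and C and D lay within the sgCcnd1 range. The spread was 6152 ± 1102 (SD, n = 4) against 6960 ± 215 (SD, n = 5), with a log2 fold change of 0.20 (95% interval -0.05 to 0.44, limma adjusted p = 0.540). Without A it was 0.09 (limma adjusted p = 0.710), and with quantile normalization also 0.09 (limma adjusted p = 0.781).

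Of the cytosolic enzymes, Ass1 (Entrez 11898, chr2:31470207-31520672, plus strand, 16 exons) had 31860, 25085, 32362 and 23768 normalized counts in A to D and 28069, 32129, 33504, 32296 and 30399 in E to I. As for Cps1, B and D were the lowest libraries, and A and C stood within the sgCcnd1 range. The log2 fold change was 0.16 (95% interval -0.11 to 0.42, limma adjusted p = 0.660). It was 0.10 without B, 0.08 without D, and -0.05 without B, D and F (limma adjusted p = 0.868, 0.848 and 0.921), and 0.06 with quantile normalization (limma adjusted p = 0.892).

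Asl (Entrez 109900, chr5:130011258-130029247, minus strand, 16 exons) had the tightest controls of the 7, at 5703, 5917, 5753 and 5912 normalized counts in A to D, followed by 6000, 6974, 7297, 6431 and 6885 in E to I. All 5 sgCcnd1 libraries were above the highest control, E by the least. It was the one member whose groups did not overlap, where 1.92% of all genes tested were higher without overlap and 3.89% were so in either direction; of the 1938 abundant genes, 89 were higher without overlap. The means were 5821 ± 110 (SD, n = 4) and 6718 ± 507 (SD, n = 5), a ratio of 1.15. On the log2 scale Asl differed by 0.20 (standard error 0.0809, 95% interval 0.03 to 0.38, limma adjusted p = 0.384). The exact two-sided permutation test over the 9 libraries gave p = 0.0159, unadjusted, where the smallest possible is 0.00794. With quantile normalization the log2 fold change was 0.10 (limma adjusted p = 0.666).

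Of the transporters, Slc25a15 (Entrez 18408, chr8:22375551-22398597, minus strand, 7 exons) was at 3517, 3671, 3283 and 3187 normalized counts in A to D and at 3427, 3859, 3796, 3940 and 4271 in E to I. All sgCcnd1 libraries but E were above every control. Slc25a15 differed by 0.17 on the log2 scale (95% interval -0.01 to 0.36, limma adjusted p = 0.472), and the exact permutation p was 0.0476, unadjusted. With quantile normalization it was 0.08 (limma adjusted p = 0.798).

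Slc25a13 (Entrez 50799, chr6:6041218-6217173, minus strand, 18 exons) was at 2605, 2889, 3389 and 3271 normalized counts in A to D and at 3092, 3233, 3524, 3347 and 3727 in E to I. As for Otc, A and B were the lowest libraries and C and D lay among the sgCcnd1 values. Slc25a13 differed by 0.16 on the log2 scale (95% interval -0.05 to 0.37, limma adjusted p = 0.556), with 0.09 without A and 0.07 with quantile normalization (limma adjusted p = 0.700 and 0.813).

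The intervals bound how large a difference these libraries leave room for. For Otc, Ass1, Asl, Slc25a15 and Slc25a13 the upper limit lay between 1.28-fold and 1.36-fold, and for Cps1 at 1.80-fold. The lower limit was lowest for Nags, at 0.80-fold, and lay between 0.93-fold and 1.02-fold for the other 6.

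**Figure D3:**
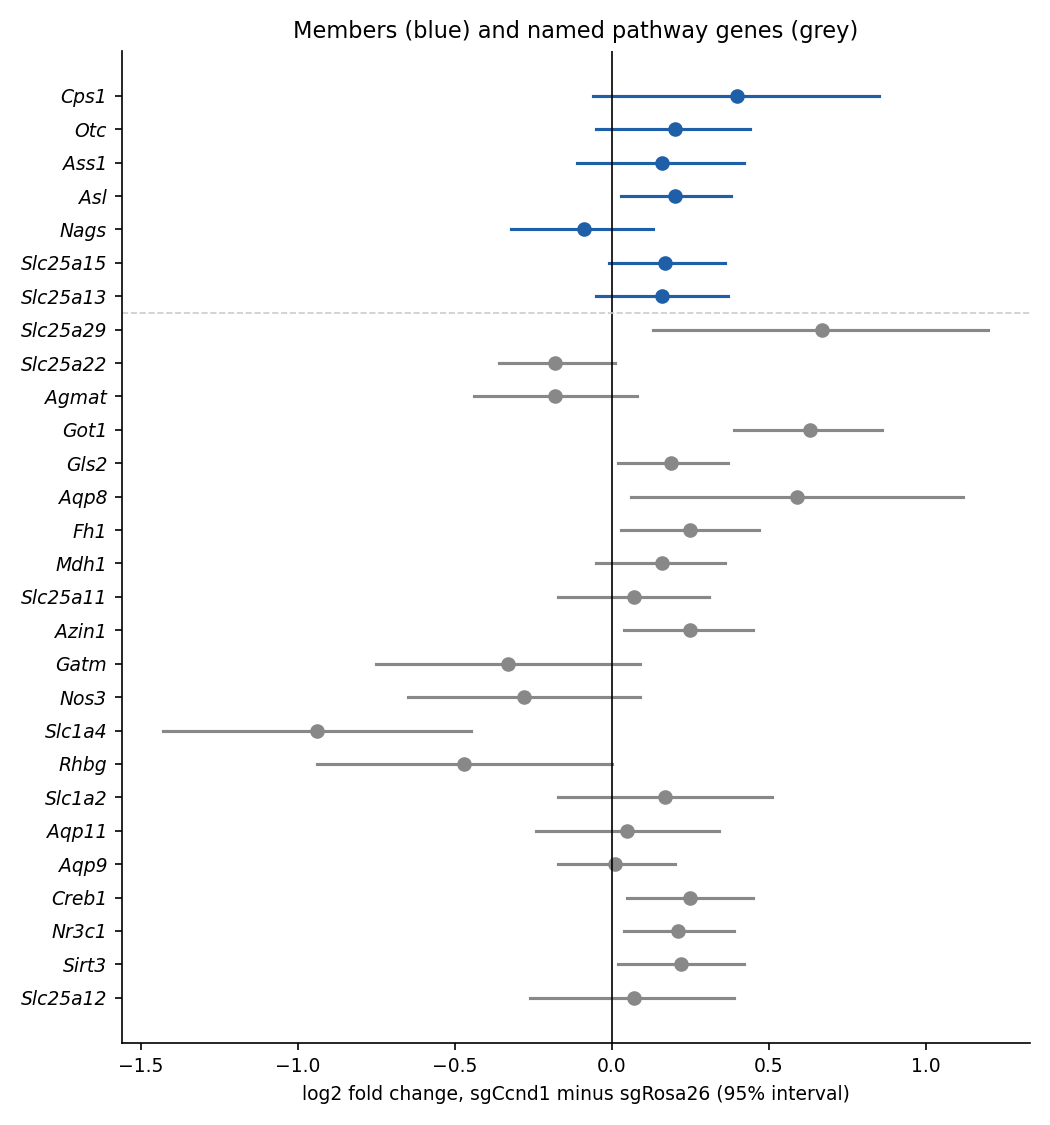
Log2 fold change (sgCcnd1 minus sgRosa26, points) with its 95% interval (lines) from the limma fit for the 7 members (blue, above the dashed line) and the named genes of the pathway lists (grey). Cps1 has the widest interval of the members, and Nags alone lies below 0 among them. Judged by the limit nearest 0, the interval of Got1 lies farthest above 0 and that of Slc1a4 farthest below.

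Together the 7 members took 0.472% to 0.714% of all reads in a library, and Cps1 alone 0.181% to 0.384%. Levels of different genes were compared as normalized counts per kilobase of coding sequence. On that scale Ass1 was at 22871 ± 3620 in sgRosa26 (SD, n = 4) and at 25307 ± 1706 in sgCcnd1 (SD, n = 5), and it was the highest of the 7 in every library. Cps1 followed at 8869 ± 3271 and 11123 ± 1056 per kilobase, and Otc at 5793 ± 1037 and 6554 ± 203, with their order reversed in at least 1 library. Asl, at 4182 ± 78.9 and 4826 ± 364, Slc25a15, at 3781 ± 243 and 4273 ± 335, and Slc25a13, at 1498 ± 177 and 1669 ± 123, came next in that order in every library. Nags was last in all 9, at 733 ± 88.9 and 686 ± 72.7 per kilobase. The order in the middle depends on the length used: per kilobase of longest transcript, Asl came before Otc, and Slc25a13 came before Slc25a15, whose transcript is mostly untranslated. Ass1 stayed first and Nags last by mean with each of the 3 lengths.

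**Figure D4:**
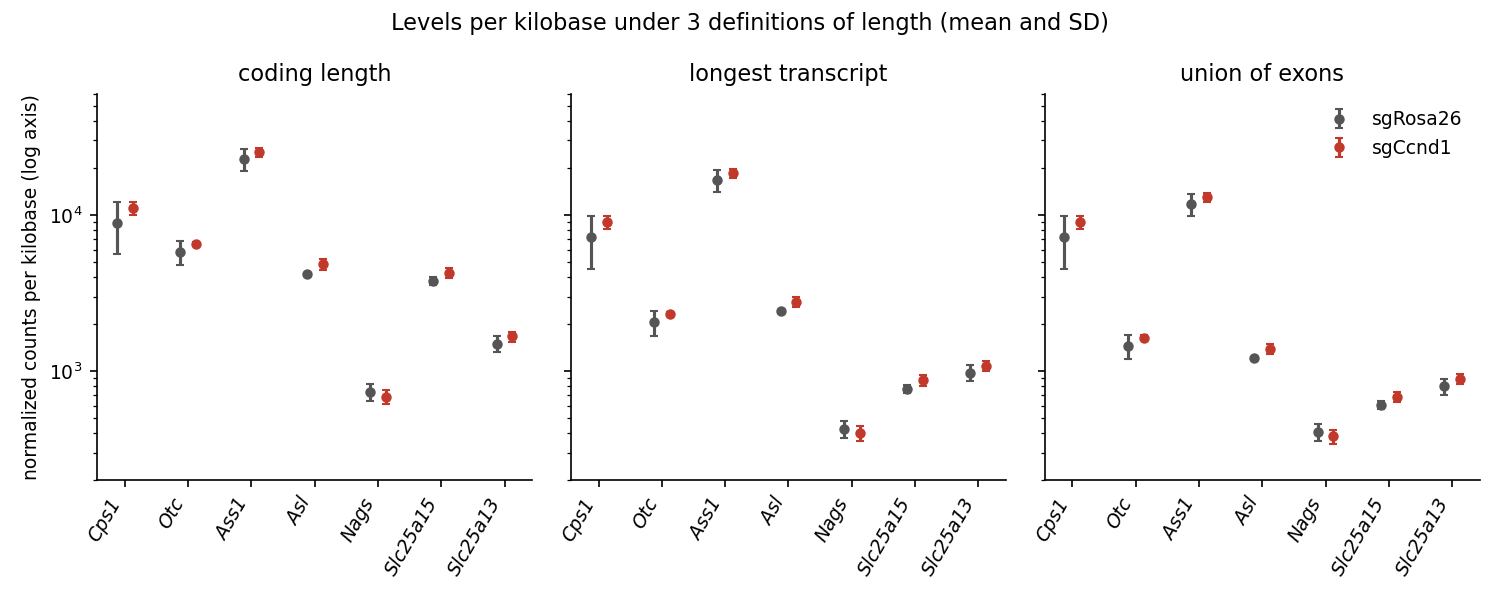
Mean level of each member per kilobase (log axis, normalized counts per kilobase, error bars SD) in sgRosa26 (n = 4, grey) and sgCcnd1 (n = 5, red), with length taken as the coding sequence, the longest transcript or the union of exons. Ass1 is highest and Nags lowest in each panel, and Slc25a15 changes position with the length used.

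The members did not vary as 1 block from library to library. Of the 21 pairs, 15 had a Pearson r above 0 over the 9 libraries on the log2 scale, 4 were above 0.5 and 4 below -0.5, given as a description without a test. Every pair with an r below 0 included Nags, and every pair without Nags was above 0. Otc and Slc25a13 had the highest r, 0.86 (Spearman rho 0.58), and 0.80 within groups, but without A and B, the libraries farthest from the median of Otc, it was -0.01. Cps1 and Ass1 had 0.82 (rho 0.37) and 0.76 within groups, which was -0.14 without B and D. Ass1 and Nags ran opposite to each other, with r = -0.81 (rho -0.67), -0.79 within groups and -0.64 without B and D. Asl and Slc25a15 had r = 0.74 (rho 0.70) 0.45 within groups and 0.87 without F and G. The points of every pair share the same 9 libraries, with their depths and length shifts, whose part in these values was not tested. Ratios along the pathway followed the same libraries: Cps1 over Otc, in normalized counts, was 11.8 in A and 4.18 in D and lay between 6.32 and 8.16 in the 5 sgCcnd1 libraries.

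The promoters of the 4 genes in the strongest positive and negative pairs with an entry are shown to let their starts be compared. The sequences are from RefSeq on GRCm38.p6, in a table where 5 of the 7 members were matched; promoters of Cps1 and Asl were not analysed here. Each runs from 250 bases before to 50 after the transcription start, 5′ to 3′ on the strand of the gene, with capitals for matches on either strand to these motifs: TTGCNNAA (C/EBP), TGACG (the half-site bound by CREB), GGGCGG (the GC box of SP1), TGTTCT (a half-site of the glucocorticoid receptor), CAAAGTCCA (HNF4) and, for the TATA box, TATAAA. Positions are chrX:10252055-10252354 (plus strand) for Otc, chr6:6217124-6217423 (minus) for Slc25a13, chr2:31470020-31470319 (plus) for Ass1 and chr11:102145263-102145562 (plus) for Nags.
Otc: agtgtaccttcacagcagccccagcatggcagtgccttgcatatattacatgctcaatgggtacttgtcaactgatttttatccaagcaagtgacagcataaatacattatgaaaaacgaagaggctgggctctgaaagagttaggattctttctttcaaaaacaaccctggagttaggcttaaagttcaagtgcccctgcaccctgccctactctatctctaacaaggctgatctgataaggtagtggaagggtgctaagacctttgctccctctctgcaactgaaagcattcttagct
Slc25a13: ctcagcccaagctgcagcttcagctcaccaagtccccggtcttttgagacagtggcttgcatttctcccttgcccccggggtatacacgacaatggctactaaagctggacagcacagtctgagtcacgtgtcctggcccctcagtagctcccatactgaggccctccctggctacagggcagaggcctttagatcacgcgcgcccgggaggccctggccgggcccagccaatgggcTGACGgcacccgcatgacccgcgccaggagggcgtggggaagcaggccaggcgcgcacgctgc
Ass1: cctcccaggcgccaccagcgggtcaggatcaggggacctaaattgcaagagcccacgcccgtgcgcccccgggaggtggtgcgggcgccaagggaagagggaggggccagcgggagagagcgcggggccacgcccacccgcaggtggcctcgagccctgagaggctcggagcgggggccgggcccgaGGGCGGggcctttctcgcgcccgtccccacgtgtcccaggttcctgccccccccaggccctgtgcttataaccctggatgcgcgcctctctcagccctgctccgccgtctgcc
Nags: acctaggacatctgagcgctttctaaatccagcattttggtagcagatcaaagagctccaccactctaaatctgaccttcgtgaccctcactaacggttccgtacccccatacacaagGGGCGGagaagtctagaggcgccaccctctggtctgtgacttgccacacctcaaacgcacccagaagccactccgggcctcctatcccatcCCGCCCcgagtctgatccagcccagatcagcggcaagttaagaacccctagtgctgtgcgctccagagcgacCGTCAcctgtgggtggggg
Otc, with 44.3% G and C, held 0 matches. Slc25a13 (65.0%) held 1, a CREB half-site that begins 13 bases before the start. Ass1 (74.0%) held 1, a GC box that begins 63 bases before the start. Nags (57.7%) held 2 GC boxes, beginning 132 and 41 bases before the start, and a CREB half-site on the other strand that begins 32 bases into the transcript. Among 32851 promoters of this length, 35.7% held the GC box, 20.8% the CREB half-site, 19% the glucocorticoid receptor half-site, 13.6% the TATA box, 10.8% the C/EBP motif and 0.475% the HNF4 motif. No matches to different motifs overlapped in these windows.

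Genes around the cycle were taken from 7 lists, 67 genes of which 60 were tested. By limma 0 of the 60 passed (0.00770% of all genes did), 42 were above 0 and their median was 0.07. Those above 0 made 70.0% of the 60, against 52.9% of all genes tested and 71.8% of the 1938 abundant genes. At an unadjusted p under 0.05 limma had 9 of the 60 higher and 3 lower, where 5.22% of all genes were higher and 5.74% lower. DESeq2 called 2, Got1 and Slc1a4, where it called 0.900% of all genes tested, and edgeR called 0.

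The list of nitrogen and bicarbonate supply had 16 of 16 genes tested, 12 above 0, and a median of 0.14. Its largest positive difference in the main fit was in Got1, the cytosolic aminotransferase that interconverts aspartate and glutamate. Got1 was at 2571, 2006, 2345 and 1829 normalized counts in A to D and at 3084, 3566, 3800, 3127 and 3210 in E to I. All 5 sgCcnd1 libraries were above the highest control. Its log2 fold change was 0.63, with a 95% interval from 0.39 to 0.86 (limma adjusted p = 0.159; DESeq2 adjusted p = 3.09e-04; edgeR adjusted p = 0.193). Its mitochondrial counterpart Got2 was at 0.02 on the log2 scale (limma adjusted p = 0.961). Gls2, the liver glutaminase that frees ammonia from glutamine in periportal cells, had 5625, 5101, 6045 and 5298 normalized counts in the controls and 6042, 6245, 6170, 6437 and 6635 in sgCcnd1, with 4 of 5 above all controls (log2 fold change 0.19, limma adjusted p = 0.396; 0.12 with quantile normalization). Aqp8, a channel that passes water and ammonia, was at 3762 ± 1474 and 5584 ± 1786 (SD, n = 4 and 5; log2 fold change 0.59, limma adjusted p = 0.406), with overlapping groups. In some alternatives Aqp8 exceeded Got1, as without B (0.83 against 0.59) and without B, D and F (0.77 against 0.42). The list's 2 genes lower at an unadjusted p under 0.05 were Slc7a1, a carrier of cationic amino acids, at -0.59 on 26.3 ± 8.64 and 17.0 ± 4.94 normalized counts, and Slc1a5, a glutamine transporter, at -0.50 on 104 ± 18.8 and 75.1 ± 24.6 (SD, n = 4 and 5; limma adjusted p = 0.452 and 0.445).

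Fumarate from the ASL step is returned to aspartate through fumarase and malate dehydrogenase. All 5 genes of that list were above 0 in the main fit, with a median of 0.07 and 0 called. Fh1, fumarase, was at 2158, 1765, 2243 and 2135 normalized counts in A to D and at 2154, 2617, 2833, 2441 and 2306 in E to I, where E lay among the controls (log2 fold change 0.25, 95% interval 0.03 to 0.47, limma adjusted p = 0.390). Mdh1, the cytosolic malate dehydrogenase, was at 0.16 (limma adjusted p = 0.560), or 0.08 without A and 0.05 with quantile normalization. Slc25a11, the carrier that exchanges malate for oxoglutarate, was at 0.07 (limma adjusted p = 0.846), or -0.0023 without A.

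Of the isoforms and paralogs, 5 of 6 were tested and 0 called. Slc25a2, a second ornithine carrier, was too low to test, at 3.95 ± 2.84 and 5.22 ± 2.51 normalized counts (SD, n = 4 and 5). Slc25a12, the other aspartate carrier, was at 247 ± 36.2 and 261 ± 47.5 (SD, n = 4 and 5; log2 fold change 0.07, limma adjusted p = 0.903), and its sign changed without B. Slc25a29, a mitochondrial carrier of basic amino acids, was at 0.67 on the log2 scale, on 19.6 ± 6.62 and 30.8 ± 5.89 normalized counts (limma adjusted p = 0.361). Slc25a22, a glutamate carrier, and Agmat, annotated as agmatinase, were both at -0.18 (limma adjusted p = 0.465 and 0.594), Agmat at -0.10 without B.

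Genes that draw on ornithine and arginine for other ends showed no common direction, with 5 above and 7 below 0 among 12 tested of 15, a median of -0.07 and 0 called. Azin1, which protects ornithine decarboxylase from degradation, was at 0.25 (limma adjusted p = 0.381). Gatm, which makes the precursor of creatine from arginine, was at -0.33 (limma adjusted p = 0.544). Nos3, the endothelial nitric oxide synthase, was at -0.28 (limma adjusted p = 0.563). Nos3 was at -0.16 without A and -0.52 without B, D and F (limma adjusted p = 0.713 and 0.493). Aqp9, a liver channel that passes urea and glycerol, was at 6980 ± 238 and 7065 ± 598 normalized counts (SD, n = 4 and 5; log2 fold change 0.01, limma adjusted p = 0.966). Aqp11, the other gene tested of that list of 5, was at 0.05 (limma adjusted p = 0.922). The signs of Aqp9 and Aqp11 changed in some alternatives, Aqp9 under both quantile normalization and rescaling to the 75th percentile.

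Ammonia that passes the periportal cells is taken up by glutamine synthetase in the cells around the central vein. Glul, which encodes it, differed by -0.00 on the log2 scale (limma adjusted p = 0.999). Of the 4 genes of this list, 3 were below 0, with a median of -0.23. Slc1a4, a transporter of neutral amino acids, was at 118, 138, 92.9 and 125 normalized counts in A to D and at 85.4, 68.9, 54.8, 72.0 and 35.5 in E to I. All 5 sgCcnd1 values were under those of the controls. Slc1a4 differed by -0.94 on the log2 scale, with a 95% interval from -1.43 to -0.45 (limma adjusted p = 0.250; DESeq2 adjusted p = 0.0154; edgeR adjusted p = 0.229). Rhbg, an ammonium transporter of the same cells, was at -0.47 (limma adjusted p = 0.454). Slc1a2, a glutamate transporter, was at 0.17 (limma adjusted p = 0.710), or 0.04 without G.

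Of 16 regulators, 16 were tested, 14 were above 0 and 0 were called, with a median of 0.17. Creb1, which acts downstream of glucagon through cyclic AMP, was at 294, 236, 282 and 251 normalized counts in A to D and at 299, 310, 307, 326 and 335 in E to I, with no overlap (log2 fold change 0.25, 95% interval 0.05 to 0.45, limma adjusted p = 0.354). Nr3c1, the glucocorticoid receptor, was at 0.21 and Sirt3, a mitochondrial deacetylase, at 0.22 (limma adjusted p = 0.372 and 0.418). Cebpa and Hnf4a were at 0.22 and 0.14 (limma adjusted p = 0.476 and 0.621), Gcgr, the glucagon receptor, at 0.00 (limma adjusted p = 0.993) and Sirt5, which removes acyl groups from CPS1, at -0.04 (limma adjusted p = 0.923).

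**Figure D5:**
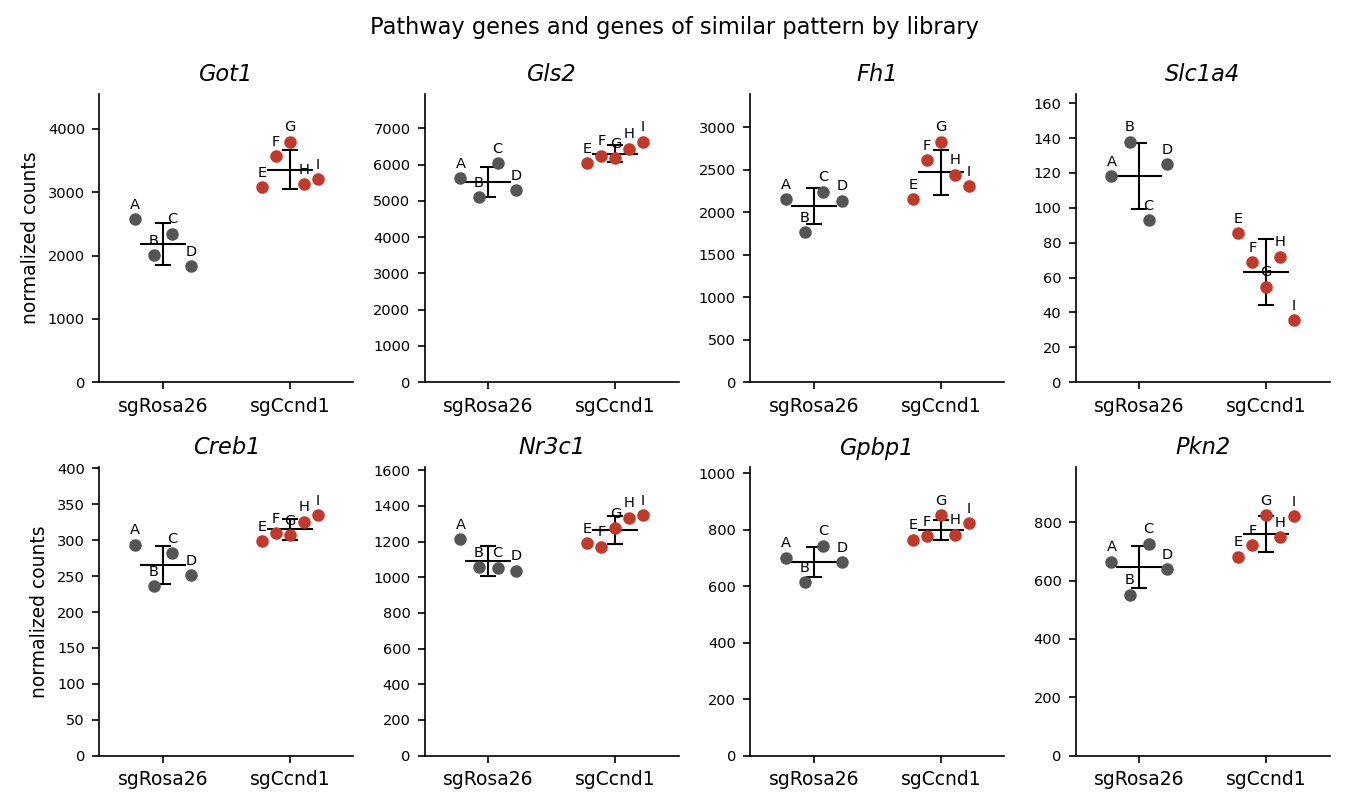
Normalized counts by library (points, lettered A to I) with mean (long bar) and SD (capped line) for 6 genes of the pathway lists and for Gpbp1 and Pkn2, 2 of the 3 genes whose pattern is most like that of the members; sgRosa26 (n = 4) in grey, sgCcnd1 (n = 5) in red, y axes from 0. The 5 sgCcnd1 values of Got1 lie above all controls and those of Slc1a4 below all controls.

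Averaged over the 7 members, the centred log2 level was -0.06, -0.20, -0.01 and -0.11 in A to D and 0.02, 0.05, 0.12, 0.08 and 0.11 in E to I. B was the lowest library and E the lowest of its group. The 3 genes outside the lists whose levels followed this mean most closely over the 9 libraries were Gpbp1 (r = 0.989, with the 9 libraries in the same rank order), Pkn2, a protein kinase (r = 0.962, rho 0.950), and St13, a co-chaperone of heat shock proteins (r = 0.960, rho 0.950), chosen among genes averaging 50 normalized counts or more. Within groups these r were 0.968, 0.980 and 0.917. Gpbp1 was at 686 ± 54.0 and 800 ± 36.2 normalized counts (SD, n = 4 and 5; log2 fold change 0.22, limma adjusted p = 0.339), a difference that its choice by likeness to the members' mean bears on.

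Markers of liver zones and of other cells were examined because the cycle belongs to periportal hepatocytes. Of 8 periportal markers, Gls2 among them, 8 were above 0 with a median of 0.26, and 3 were higher at an unadjusted limma p under 0.05 (5.22% of all genes). Of all genes tested 52.9% were above 0. Among the 1938 abundant genes 71.8% were above 0 and 232 were higher at that level, and all 8 markers but Sdsl are that abundant. The summed level of the periportal markers was 55129 to 79276 normalized counts in sgRosa26 and 60420 to 98999 in sgCcnd1. Of 9 pericentral markers, Glul, Rhbg and Slc1a2 among them, 3 were above 0 with a median of -0.06, 1 was lower at that level, and the sums were 92594 to 114264 and 95980 to 121954. All 9 lymphocyte markers were below 0 with a median of -0.65, and 6 were lower at an unadjusted limma p under 0.05 (5.74% of all genes), with sums of 369 to 522 and 213 to 465. Of 9 Kupffer cell and macrophage markers, 6 were below 0 and 2 were lower at that level (sums 3438 to 4204 and 2973 to 3675). The counts were 6 and 3 for 7 stellate cell markers (3647 to 5988 and 3271 to 4928), 5 and 0 for 7 sinusoidal endothelial markers (2534 to 3646 and 2675 to 3845), and 3 and 1 for 5 cholangiocyte markers (928 to 1906 and 750 to 1165). Limma and edgeR called 0 of these markers, and DESeq2 called 3, where it called 0.900% of all genes. Sds, the periportal serine dehydratase, was at 2145 ± 316 and 3089 ± 488 normalized counts (SD, n = 4 and 5; log2 fold change 0.52, limma adjusted p = 0.253, DESeq2 adjusted p = 0.0394). Lyz2, a macrophage lysozyme, was at 991 ± 69.9 and 733 ± 60.7 (log2 fold change -0.44, limma adjusted p = 0.225, DESeq2 adjusted p = 0.00203), and Cd68, a macrophage lysosomal protein, at a log2 difference of -0.71 (limma adjusted p = 0.245, DESeq2 adjusted p = 0.0265). For Lyz2 and Cd68 all 5 sgCcnd1 libraries were below all controls, where 256 of 12993 genes were lower without overlap. No marker of these lists was at 0 in all libraries. The sums overlapped between groups in each list, and their part in the members' values was not tested.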

How the data were processed

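RNA-seq of 9 liver libraries (4 sgRosa26, 5 sgCcnd1) was analysed from 1 deposited table. Per the submitters' processing notes, the tools used were Trim Galore 0.6.7, HISAT2 2.2.1, featureCounts 2.0.3, FastQC 0.74, MultiQC and DESeq2 2.11.40.8, with builds mm10 and GRCm38; the annotation and use of strand are not given in the sources used here. The authors deposited a never-negative signal, normalized counts. In each library 100% of values were whole multiples (within 0.01) of the value of 1 read, so read counts were recovered. Columns name a guide target and no replicate number, and were matched to groups only.

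The members and lists were chosen with earlier results of these data known; 1 further gene of the cycle and 1 related gene are not reported here. The log2(normalized count + 1) of 12993 genes (mean of at least 10) was tested with limma 3.58.1 in R 4.3.3 (lmFit, eBayes with trend, two-sided, no covariate), with Benjamini-Hochberg adjustment over all genes and a threshold of 0.05. Intervals are 95%. Alternatives were pseudocounts 0.1 and 10, no minimum or a minimum mean of 100, quantile and 75th percentile scaling, robust eBayes, array weights, each library left out, and count models on recovered reads (edgeR 4.0.16 with TMM or RLE, DESeq2 1.42.0, where 1010 adjusted p-values stayed undefined). The fits with the length shift or without B, D and F, count models without H, and the union of exons were added after seeing the data. Procedures were tested on simulated counts. Genes named were the 7 members, Ccnd1, 2 paralogs, from each list those past the threshold or the 3 with the smallest p, and 3 genes of similar pattern; Got2, Slc7a1, Slc1a5, Sds, Lyz2, Cd68, Glul, Cebpa, Hnf4a, Gcgr and Sirt5 were named after their values were seen. Gene models and lengths are from GENCODE M21 (GRCm38), matched by Ensembl identifier; coding length came from these models. Depth was 10.8 M to 20.2 M reads per library; without molecular identifiers it bounds counting error and nothing else. Plots used Python 3.11.15 and matplotlib 3.10.9.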

Additional observations from a re-analysis of the deposited data

Results flagged for a closer look

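A search of 68 groups of values for a single distant library found 2, while about 1 in 20 would be found by chance. Mdh1 had 6086 normalized counts in control library A, and between 7479 and 7633 in B, C and D. Nr3c1 had 1214 normalized counts in A, and between 1037 and 1056 in B, C and D. No urea cycle member had such a library.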

How the results depend on the processing

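No paired analysis was possible because no replicate number stands in the table's column names. No member passed in any of 24 alternatives, and 6 of 7 were above 0 in each, though without B, D and F the exceptions changed: Ass1 was then at -0.05 and Nags at 0.03. Fewer samples enter that fit. With single libraries left out, Cps1 ranged from 0.22 to 0.60, Otc from 0.09 to 0.27, Ass1 from 0.08 to 0.23, Asl from 0.17 to 0.24, Nags from -0.15 to -0.02, Slc25a15 from 0.14 to 0.22 and Slc25a13 from 0.09 to 0.22. Quantile normalization brought the members' median from 0.17 to 0.08. Ccnd1 ranged from -1.11 to -0.96 and lost the threshold without B, D, F, H or I (limma adjusted p from 0.0559 to 0.0852), without B, D and F (-0.84) and in edgeR without H (-1.02).

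DESeq2 called 1 gene each of nitrogen supply (Got1) and of the glutamine side (Slc1a4), with or without H, and over all genes 41 higher and 76 lower, or 16 and 25 without H. The 1 gene lower by limma became 2 with quantile normalization, 3 with the length covariate, 0 without B, D and F, and 0 to 2 with a library left out; edgeR had 1 with all libraries and 0 without H. The cause was not tested. Rescaling to the 75th percentile left 45.4% of all genes above 0, against 52.9%.

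By longest transcript the positions per kilobase were 4 for Otc, 3 for Asl, 6 for Slc25a15 and 5 for Slc25a13; by union of exons, 6 for Slc25a15 and 5 for Slc25a13. Among other named genes, with single libraries left out, Gt(ROSA)26Sor ranged from -0.11 (without A) to 0.16, Slc25a11 from -0.0023 (without A) to 0.13, Aqp9 from -0.03 (without G; -0.0012 without B) to 0.05 and Aqp11 from -0.04 (without B) to 0.16. Slc25a12 was at -0.01 without B. In the main fit Gt(ROSA)26Sor was at 0.06 (limma adjusted p = 0.929). Aqp9 was at -0.02 with rescaling and -0.08 with quantile normalization, and Aqp11 at -0.01 with array weights. Without B, D and F, Aqp11 was at -0.10 and Slc25a12 at -0.16, and Gls2 (0.12), Fh1 (0.14), Azin1 (0.11), Creb1 (0.14), Pkn2 (0.14) and St13 (0.14) were smaller by over 1.5 times, as were Slc1a2 (0.09) and Agmat (-0.07), while Gt(ROSA)26Sor (0.32), Slc25a11 (0.17), Slc25a22 (-0.32), Nos3 (-0.52) and Aqp9 (0.04) were larger by as much.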
